A study of Homo sapiens with 12 samples.

Results

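The collagen chains are the genes that encode the alpha chains of collagen proteins. They were taken from the gene table by name, as every symbol made of COL, a type number, A and a chain number whose description is not that of a pseudogene, which gave 44 of the 50868 genes. RNA was sequenced from RPMI2650, a human cell line from a nasal septum carcinoma that is used as a model of nasal epithelium, grown at an air-liquid interface, a culture in which the upper cell surface meets air. There were 3 groups of 4 libraries. The first was exposed to 1 µM PFHxA (perfluorohexanoic acid) for 7 days, the next to 1 µM PFBA (perfluorobutanoic acid, which has the shorter carbon chain) for 7 days, and the last was a control, for which the labels give neither a vehicle nor a time. All 12 libraries are labelled wild type and come from this 1 tumour line, so that no other donor or cell line is represented. The comparisons address how per- and polyfluoroalkyl acids of different chain length act on nasal epithelial cells. The labels do not say whether a group's 4 libraries were grown as separate cultures, and p-values then measure only the spread between libraries, which may be technical. Libraries are named by group and by the letter of their column.

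Collagens are matrix proteins whose alpha chains wind into a triple helix, and each type is assembled only from particular chains. Fibrillar collagens such as type I form the banded fibres of connective tissue and are made mostly by fibroblasts. Type IV forms the mesh of basement membranes, the sheets on which epithelia rest, and type VI forms beaded microfibrils next to them. In an epithelium the best-known collagen is COL17A1, a protein that spans the cell membrane and ties basal cells to the basement membrane through hemidesmosomes.

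The type IV genes lie head to head in pairs, each pair read away from a shared stretch, and the data set the pairs apart: 1 pair was read on both sides, 1 mostly on its COL4A5 side and 1 hardly at all. The stretches between or before their RefSeq starts are shown for that reason, with the stretch before COL17A1, the chain with the highest level. Between the starts lie 126 bases for COL4A1 and COL4A2, 379 bases for COL4A6 and COL4A5, and 418 bases for COL4A4 and COL4A3. Sequences are from the RefSeq promoter table, build GRCh38.p14, which held 32 of the 44 chains and was searched for 3 motifs on both strands, and capitals mark the motif letters. The motifs were the GC box GGGCGG, the CCAAT box CCAAT and the TATA box TATAAA, none of which overlaps another. Apart from the first, stretches were cut where a GENCODE 29 exon or the table's own gene begins inside them. The first was not cut, and it lies inside the table's own COL4A2 gene, which begins at chr13:110305812. GENCODE 29 has further starts of both genes within that stretch. The stretches read 5′ to 3′ as follows.
COL4A1 and COL4A2, chr13:110307158-110307283, plus strand: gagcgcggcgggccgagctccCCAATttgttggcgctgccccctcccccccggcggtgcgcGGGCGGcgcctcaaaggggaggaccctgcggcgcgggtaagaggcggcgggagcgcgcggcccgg
COL4A5, chrX:108439588-108439837, plus strand: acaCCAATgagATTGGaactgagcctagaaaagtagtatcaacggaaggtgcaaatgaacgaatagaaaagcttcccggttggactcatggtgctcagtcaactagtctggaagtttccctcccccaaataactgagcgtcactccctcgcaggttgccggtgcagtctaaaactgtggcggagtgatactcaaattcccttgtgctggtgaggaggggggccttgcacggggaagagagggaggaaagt
COL4A3, chr2:227164454-227164564, plus strand: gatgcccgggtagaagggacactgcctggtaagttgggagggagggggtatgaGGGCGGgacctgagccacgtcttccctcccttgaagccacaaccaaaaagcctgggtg
COL17A1, chr10:104086003-104086130, minus strand: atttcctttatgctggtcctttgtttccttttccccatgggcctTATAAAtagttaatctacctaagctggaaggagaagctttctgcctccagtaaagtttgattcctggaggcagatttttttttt

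The stretch shared by COL4A1 and COL4A2 had a GC content of 80.2%, a GC box and a CCAAT box. A GC box stood in 34.6%, and a CCAAT box in 21.1%, of 35116 RefSeq promoters over a window of the same length and offset. The COL4A5 stretch, at 51.2% GC, held 2 CCAAT boxes (at least 1 in 32% of promoters) and no GC box (42.6%). The COL4A3 stretch held a GC box (26.6%) and neither of the other motifs. The COL17A1 stretch, at 39.1% GC, held the only TATA box of the 4 (5.53% of promoters). A match of letters is a description of the stretch and no evidence that a factor binds there.

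The libraries held 16941599 to 21879105 counts. Epithelial markers fixed as a list were present, 6 of 6 at a mean of 1 CPM or more (CPM is a gene's count scaled to library size), led by KRT5, a basal keratin, at a mean of 1926 CPM. Of 8 mesenchymal markers 4 reached 1 CPM, with VIM at 676.8, PDGFRB at 26.1, THY1 at 11.5 and PDGFRA at 1.86 CPM, while LUM, DCN, FAP and TWIST1 had 3 to 14 reads in all 12 libraries. None of these mesenchymal markers was called in any of the 3 comparisons, and their sum was 667.1 to 705.6 CPM in PFHxA libraries, 660.2 to 896.4 in PFBA libraries and 637.2 to 893.4 in control libraries. Of the other lists, 1 of 4 endothelial markers (CDH5), 1 of 4 leukocyte markers (CD68) and 3 of 4 chondrocyte markers (SOX9, ACAN, MATN3) reached 1 CPM, and none was called. Among epithelial markers EPCAM fell with PFHxA to 38.3 ± 0.739 CPM, against 43.3 ± 1.98 CPM in control (SD, n = 4 each, adjusted p = 0.0384), and KRT5 was higher with PFHxA at 2046 ± 79.8 CPM, against 1812 ± 44.1 CPM with PFBA (SD, n = 4 each, adjusted p = 0.0117). The part of these markers in the results below was not tested. In a bulk sample, fewer cells of a kind and less RNA per cell cannot be told apart.

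Of the 44 chains, 25 were expressed at a mean of 1 CPM or more over the 12 libraries. By class these were 5 of 11 fibrillar chains, 4 of 6 type IV chains and 16 of 27 chains of other types. All collagen reads together made up 0.220% ± 0.00221 of counts with PFHxA, 0.206% ± 0.00526 with PFBA and 0.197% ± 0.00926 in control (SD, n = 4 each). A single chain, COL17A1, took 53.1% of collagen reads over the 12 libraries, with a range of 52.3% to 54.6%.

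Levels of different chains were compared as CPM per kb of the longest GENCODE 29 transcript, a value per length that depends on which transcript the cells use. COL17A1 averaged 194.0 CPM per kb over the 12 libraries, followed by COL6A1 at 90.2, COL6A2 at 37.5, COL9A3, a fibril-associated chain of cartilage, at 21.6 and COL18A1, the precursor of endostatin, at 11.6 CPM per kb. The ranges of the first 4 over the 12 libraries did not overlap one another or those of any other tested chain. Below them COL18A1 was followed by COL4A5 at 9.43, COL4A2 at 7.03 and COL6A6 at 6.67 CPM per kb. In each of the 3 groups the range of COL18A1 lay above that of COL4A5, and the range of COL4A5 above that of COL4A2. In control, for instance, COL18A1 ran from 9.93 to 11.5, COL4A5 from 7.75 to 9.44 and COL4A2 from 5.86 to 6.74 CPM per kb. COL4A2 and COL6A6 overlapped with PFBA and in control but not with PFHxA (7.59 to 8.22 for COL4A2, and 6.94 to 7.36 for COL6A6). COL15A1 at 4.61, COL26A1 at 4.10 and COL4A1 at 3.13 CPM per kb followed. With PFBA COL15A1 (4.51 to 5.03) lay above COL26A1 (3.24 to 4.41), and COL26A1 overlapped COL4A1 (3.09 to 3.41). In control COL15A1 (3.76 to 4.38) overlapped COL26A1 (3.49 to 4.75). COL5A2 at 2.55, COL13A1 at 2.24 and COL25A1 at 2.15 CPM per kb, the last 2 of them membrane-spanning collagens, came next. The other 15 tested chains averaged between 0.0523 CPM per kb for COL6A3 and 1.77 CPM per kb for COL8A2.

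**Figure D1:**
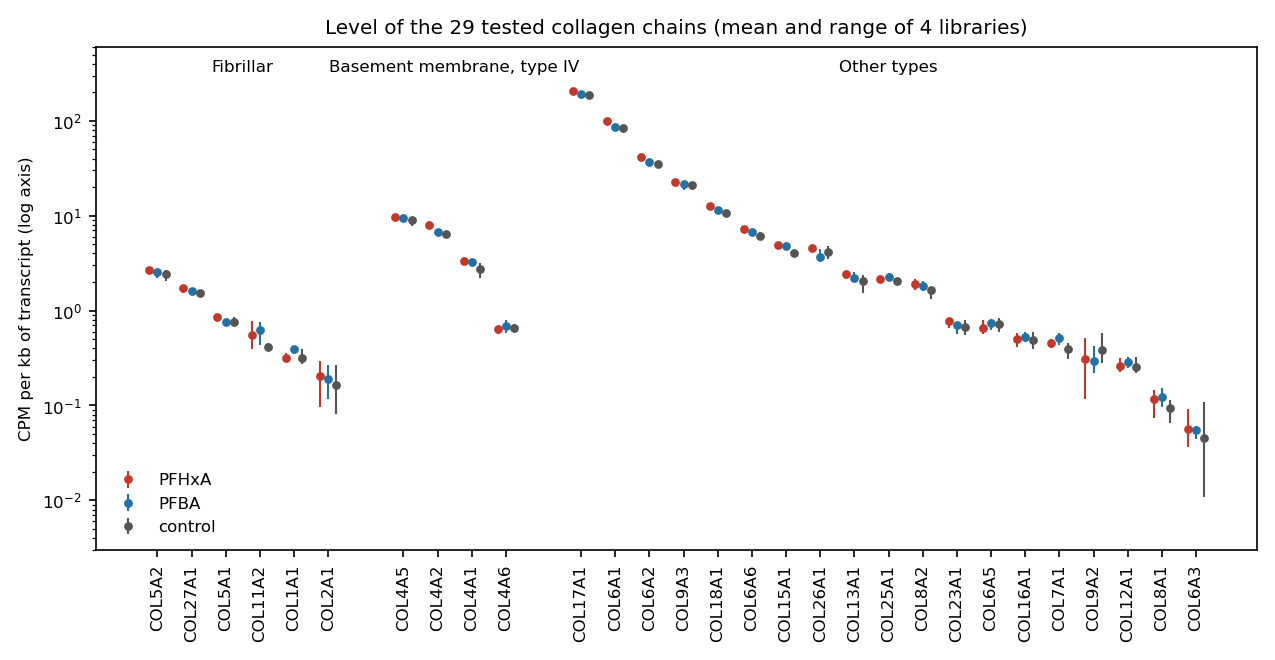
CPM per kb of transcript (vertical log axis) for the 29 tested chains in 3 classes, with points for the mean and bars for the range of 4 libraries, PFHxA left, PFBA middle and control right. COL17A1 stands at 194.0 CPM per kb, fibrillar chains at 2.55 CPM per kb (COL5A2) or less, and the groups lie close together on this scale.

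Among fibrillar chains, COL5A2 led with 2.55 CPM per kb, ahead of COL27A1 (1.63 CPM per kb), COL5A1 (0.792), COL11A2 (0.529) and COL1A1 (0.343). COL5A1 and COL5A2 are chains of type V, which starts the growth of type I fibrils. COL1A1 had 540 reads in the 12 libraries while COL1A2, its partner in the common form of type I, had 1, and COL3A1, the type III chain, had 12. Of the type XI chains, COL11A2 had 796 reads and COL11A1 had none. COL2A1 had 220 reads, COL5A3 12 and COL24A1 4.

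The same pattern of 1 partner without another recurred in type IX, and in type VI for COL6A3 but not for COL6A6. COL9A3 had 12586 reads, COL9A2 had 221 and COL9A1 had none, although the type IX molecule of cartilage combines these chains. In type VI, COL6A1 and COL6A2 combine with a further chain, in most tissues COL6A3. Here COL6A3 averaged 0.0523 CPM per kb, against 6.67 CPM per kb for COL6A6 and 0.703 CPM per kb for COL6A5, which are alternatives to it. The ratio of COL6A3 to COL6A6, per kb, was 0.00791 ± 0.00328 with PFHxA, 0.00823 ± 0.00101 with PFBA and 0.00714 ± 0.00677 in control (SD, n = 4 each). COL6A2 stood at a ratio of 0.417 ± 0.0167 to COL6A1 with PFHxA, 0.421 ± 0.0182 with PFBA and 0.411 ± 0.0166 in control.

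In type IV, COL4A1 and COL4A2 were both read, at 4853 and 10654 reads, and the ratio of COL4A1 to COL4A2, per kb, was 0.421 ± 0.0397 with PFHxA, 0.482 ± 0.0361 with PFBA and 0.435 ± 0.0459 in control (SD, n = 4 each). COL4A5 had 14302 reads and COL4A6, which starts at the far side of the same stretch, 1039. The ratio of COL4A6 to COL4A5, per kb, was 0.0701 over the 12 libraries, and it lay between 0.0570 and 0.0814. COL4A3 had 1 read and COL4A4 25 in all 12 libraries, so that the chains that join COL4A5 in the kidney and lung type IV mesh were at or near 0. The loci of COL4A1 and COL4A2 overlap in the table on chromosome 13 and the strand setting of the counting is not given in the sources used here, so reads within the overlap could belong to either.

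No read was found for COL9A1, COL11A1, COL19A1 and COL22A1 in 234028385 counts, which allows up to 0.0128 CPM (3 counts in all libraries, counting error only). Another 11 chains were not tested because their counts were too low, among them COL20A1 with 51 reads, COL21A1 with 33, COL10A1 with 6 and COL14A1 and COL28A1 with 3 each. The 29 chains that passed the count filter are the 25 expressed ones and COL9A2, COL2A1, COL8A1 and COL6A3.

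With PFHxA, 7 of the 29 tested chains were higher than in control and none was lower. They were the epithelial COL17A1, the basement membrane zone chains COL15A1 and COL18A1, the type IV chain COL4A2 and the type VI chains COL6A1, COL6A2 and COL6A6. In the table's GRCh38 coordinates COL17A1 lies at chr10:104031286-104086002, COL15A1 at chr9:98943179-99070792, COL4A2 at chr13:110305812-110513027 and COL6A6 at chr3:130560334-130678155. The other 3 lie on chromosome 21, COL18A1 at chr21:45405137-45513720, COL6A1 at chr21:45981737-46005050 and COL6A2 at chr21:46098097-46132849. The changes were small, from 1.1-fold to 1.25-fold. By edgeR's quasi-likelihood test with Benjamini-Hochberg adjustment, which called 14.9% of the 16554 genes tested (6.08% higher, 8.82% lower), 24.1% of the chains were called. The 7 were among the 10 chains with a mean of 20 CPM or more, and none of the 15 expressed chains under that level was called. The SEs of the 7 ran from 0.0405 to 0.0598 on the log2 scale. Those of the 15 ran from 0.0851 (COL5A1) to 0.211 (COL11A2), and those of the 4 tested chains under 1 CPM from 0.289 to 0.507. Changes as small as those of the 7 could not be detected in these 4. COL9A3, COL4A5 and COL4A1, above 20 CPM, were not called with SEs of 0.0637, 0.0617 and 0.1005. The SE of COL4A1 lies within the range of the 15 chains under that level. The part of depth in the missing calls was not tested.

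Besides the called chains most others leaned the same way. In the fit 26 of 29 tested chains were higher with PFHxA than in control, with a median log2 fold change of 0.19, against 49.4% fitted higher and a median of -0.00385 over all genes tested. In 8 chains, the 7 and COL4A5, the 4 PFHxA libraries did not overlap the 4 control libraries, with PFHxA higher (9.49% of all genes tested). Transcript composition moved with these values. The chains are rich in G and C, with a median of 61.1% against 48.5% over all genes tested, and long, with a median of 6483 against 3252 nt. Log2 values of each library were taken as deviations from the gene's mean over the 12 libraries. These deviations rose with GC content by 0.0674 to 0.0984 per 10 percentage points in PFHxA libraries. The slope was -0.0683 to -0.00362 in PFBA libraries and -0.0621 to -0.00849 in control libraries. Such slopes are relative, so those of each group depend on the other groups. Among the 2361 genes above 60% GC the median log2 fold change of PFHxA over control was 0.11, and 11.9% were called higher. After a correction for GC content and transcript length in each library (called trend removed from here on), 1 chain was called, COL6A6 (2.62% of all genes tested), 19 of 29 were fitted higher (50.2% of all genes tested) and the median was 0.06. In the other direction no chain was without overlap and lower with PFHxA (11.2% of all genes tested). The correction takes out GC content and length together, and their separate parts in the lost calls were not tested. The GC trend lies along the groups, and an effect of PFHxA on GC-rich transcripts and a difference between library preparations cannot be told apart.

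**Figure D2:**
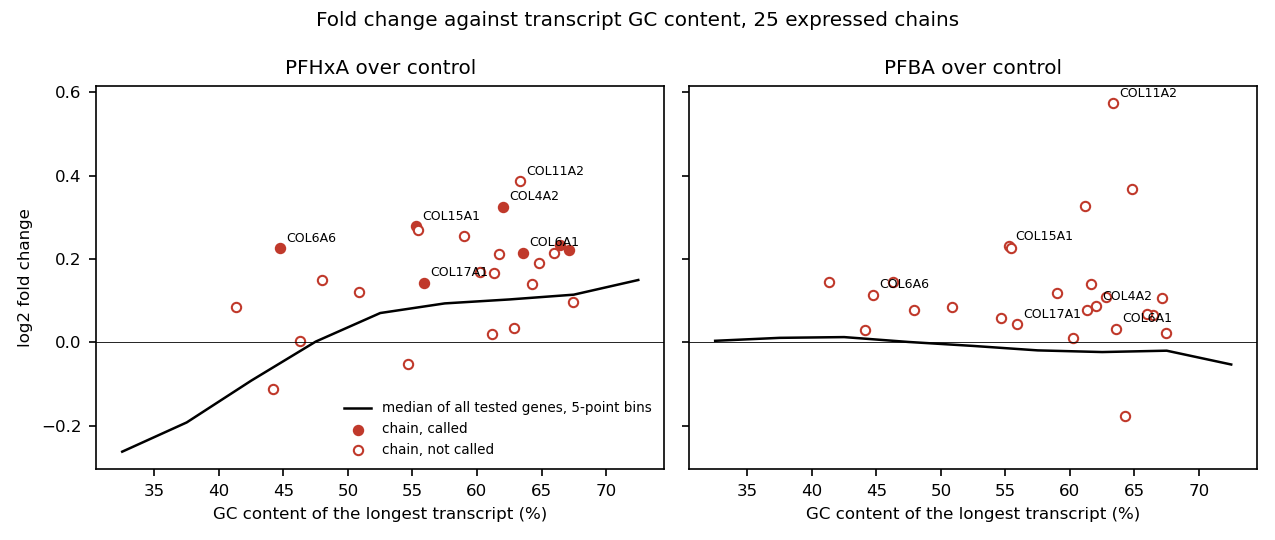
Log2 fold change (vertical) against the GC content of the longest transcript (horizontal, %) for the 25 expressed chains, PFHxA over control at the left and PFBA over control at the right, with filled points for called chains and a line for the median of all tested genes in bins of 5 points that hold at least 20 genes. In the PFHxA panel the line climbs from -0.26 to 0.15, and COL6A6 lies farthest to the left of the called chains at 44.7% GC, while in the PFBA panel the line stays between -0.05 and 0.01.

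Among the chains of the epithelial basement membrane zone, COL17A1 had 1180, 1155, 1175 and 1156 CPM in PFHxA libraries a to d, and 1093, 1074, 1077 and 980.4 CPM in control libraries. Every PFHxA library lay above every control library, and control d lay well below its group. The log2 fold change was 0.14 (SE 0.0405, adjusted p = 0.0309), which is 1.1-fold. It was not called without PFHxA a, b, c or d (adjusted p from 0.0539 to 0.0639), nor with only the 8 libraries compared in the fit (0.0573), and was 0.01 with the trend removed (adjusted p = 0.957).

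COL15A1, a basement membrane zone collagen that yields an endostatin-like fragment, had 26.9, 27.1, 26.8 and 28.1 CPM in PFHxA libraries and 22.9, 22.1, 24.1 and 20.7 CPM in control libraries. The groups did not overlap, and the log2 fold change was 0.28 (SE 0.0598, adjusted p = 0.00812). COL18A1 had 83.4, 87.6, 78.3 and 81.2 CPM in PFHxA libraries and 70.8, 71.8, 75.5 and 65.4 CPM in control libraries. Its groups did not overlap either, with a log2 fold change of 0.22 (SE 0.0516, adjusted p = 0.013). With the trend removed these 2 stood at 0.15 (adjusted p = 0.146) and 0.02 (adjusted p = 0.868). COL7A1, which forms the anchoring fibrils beneath the basement membrane, had 4.22 ± 0.407 CPM with PFHxA and 3.68 ± 0.633 CPM in control (SD, n = 4 each) and was not called (adjusted p = 0.43).

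Of the 4 tested type IV chains COL4A2 alone was called (14.9% of all genes tested). It had 49.3, 52.7, 53.4 and 51.7 CPM in PFHxA libraries and 41.3, 43.8, 41.9 and 38.1 CPM in control libraries. All PFHxA libraries lay above all control libraries, and the log2 fold change of 0.33 (SE 0.0527, adjusted p = 0.00219) was the largest of the called chains, 1.25-fold. Its neighbour COL4A1 had 21.7, 22.6, 20 and 24.4 CPM in PFHxA libraries and 19.7, 21.2, 18 and 14.6 CPM in control libraries. These overlap, and COL4A1 was not called (log2 fold change 0.27, SE 0.101, adjusted p = 0.0918), though it was without control b (adjusted p = 0.0412). COL4A5 had 61.2, 61.3, 65.9 and 65.0 CPM in PFHxA libraries and 60.2, 61.1, 61.2 and 50.3 CPM in control libraries. Its PFHxA libraries were all above its control libraries, but a and b by little, and it was not called (adjusted p = 0.22). The interval of the COL4A6 log2 fold change, -0.30 to 0.20, covers 0. With the trend removed COL4A2 stood at 0.14 (adjusted p = 0.122).

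In type VI, 3 of 5 tested chains were called higher, beside 6.08% of all genes tested. COL6A1 had 418.6, 415.6, 415.5 and 422.0 CPM in PFHxA libraries and 356.0, 374.0, 381.6 and 328.3 CPM in control libraries, a log2 fold change of 0.22 (SE 0.0455, adjusted p = 0.00764). COL6A2 had 136.9, 147.0, 145.5 and 139.4 CPM in PFHxA libraries and 112.4, 128.8, 130.2 and 112.3 CPM in control libraries, a log2 fold change of 0.23 (SE 0.0547, adjusted p = 0.013). The PFHxA libraries of COL6A1 lay close together, and for both chains the groups did not overlap.

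COL6A6 had 69.9, 66.5, 68.9 and 70.5 CPM in PFHxA libraries and 64.0, 60.7, 58.4 and 52.6 CPM in control libraries, a log2 fold change of 0.23 (SE 0.0562, adjusted p = 0.0172). Its transcript has a GC content of 44.7%, below the median of all genes tested, and a length of 9581 nt, above their median. With the trend removed COL6A6 kept a log2 fold change of 0.18 (SE 0.0413, adjusted p = 0.0424). COL6A1 and COL6A2, at 63.5% and 66.4% GC, stood at 0.08 (adjusted p = 0.326) and 0.11 (adjusted p = 0.312) in that fit. COL6A5, at 44.1% GC, had 6.12 ± 0.860 CPM with PFHxA and 6.59 ± 0.932 CPM in control (SD, n = 4 each) and was not called (adjusted p = 0.636).

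**Figure D3:**
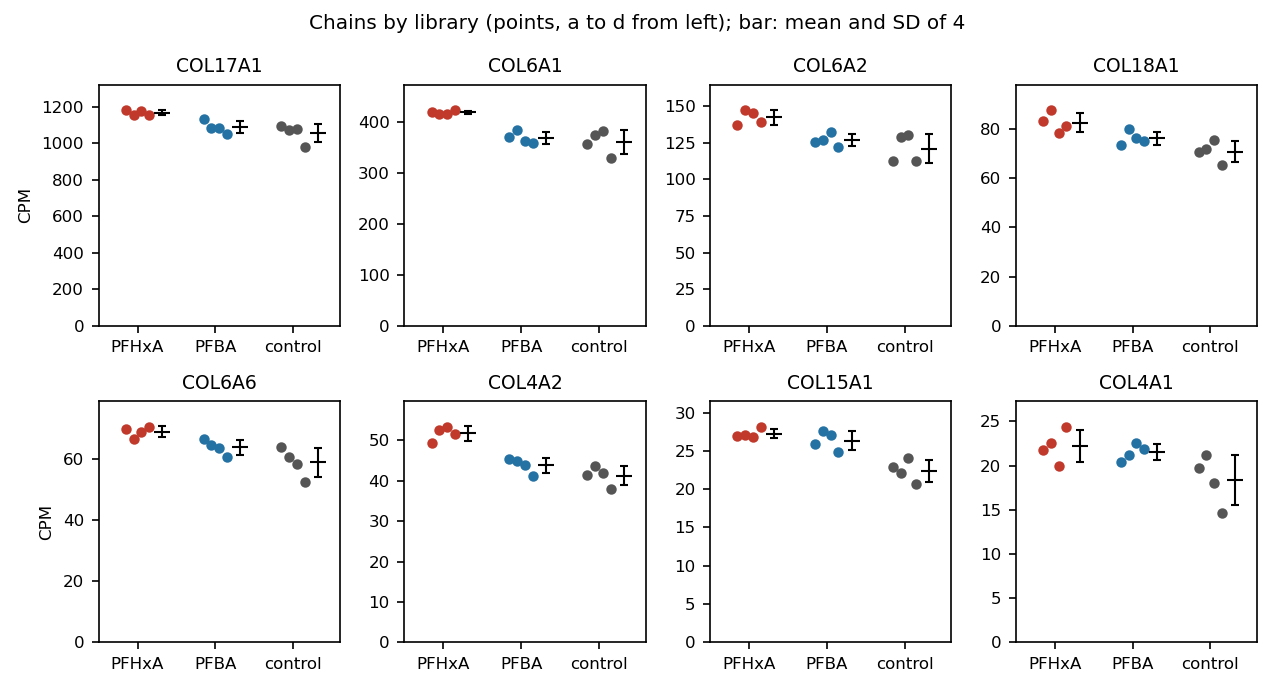
CPM (vertical axis from 0) of the 7 chains called between PFHxA and control and of COL4A1, 1 panel a chain, with a point for each library and a bar for the mean and SD of 4. The PFHxA points lie above the control points in every panel but that of COL4A1, and control d is the lowest control point in each of the 8 panels.

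None of the 6 tested fibrillar chains was called between PFHxA and control, and their means ran from 0.186 to 2.55 CPM per kb. COL5A2 had 19.6, 18.7, 18.2 and 19.6 CPM in PFHxA libraries and 19.0, 17.8, 17.4 and 14.4 CPM in control libraries. COL27A1, a fibrillar collagen of cartilage and other tissues, had 14.2, 14.2, 11.8 and 13.6 CPM in PFHxA libraries and 12.6, 11.5, 12.9 and 10.9 CPM in control libraries. COL5A1 had 7.10, 7.29, 7.54 and 6.97 CPM in PFHxA libraries and 5.92, 6.59, 7.22 and 5.96 CPM in control libraries. All 3 overlapped between the groups, and their 95% intervals on the log2 scale reached from -0.05 to 0.35 for COL5A2, from -0.02 to 0.36 for COL27A1 and from -0.01 to 0.35 for COL5A1. Increases of the size seen in COL4A2 lie within these intervals.

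The remaining chains were not called either. COL9A3 had 56.1 ± 3.95 CPM with PFHxA and 52.4 ± 0.776 CPM in control, and COL25A1 had 17.3 ± 1.48 CPM with PFHxA and 16.3 ± 0.658 CPM in control (SD, n = 4 each). COL26A1 had 13.8 ± 0.704 CPM with PFHxA and 12.5 ± 1.56 CPM in control. The 4 fibril-associated, 3 transmembrane and 2 network chains tested had log2 fold changes from -0.29 for COL9A2 to 0.34 for COL8A1, both of which averaged under 1 CPM.

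Control d, the library with the fewest counts, was the lowest control library in 19 of 29 tested chains and in all 7 called ones. Without it each of the 7 was still called, with adjusted p from 0.00526 for COL4A2 to 0.0438 for COL17A1, and the 6 other than COL17A1 were called in 12 of 12 fits that left out 1 library each.

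With PFBA no chain was called against control. Of the 29 tested chains 27 were fitted higher, with a median log2 fold change of 0.11 (49.1% fitted higher and a median of -0.00262 over all genes tested). An unadjusted p under 0.05 was reached by 5 of the 29, beside 1632 of the 16554 genes tested. The 5 were COL15A1, COL11A2, COL7A1, COL1A1 and COL4A1. The same test called 0.00604% of the 16554 genes, which is 1 gene. DESeq2 and limma-voom called no chain either. With the trend removed no chain was called, and 25 of 29 were fitted higher, beside 7845 of the 16554 genes tested. Their median log2 fold change was then 0.06, against -0.007 over all genes tested. Both acids were compared with the same 4 control libraries, so the values of the 2 comparisons are not independent.

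The chain with the smallest p was COL15A1, with 25.9, 27.6, 27.1 and 24.8 CPM in PFBA libraries and 22.9, 22.1, 24.1 and 20.7 CPM in control libraries. It alone among the chains had no overlap between PFBA and control (3.17% of all genes tested), and its log2 fold change was 0.23 (SE 0.0597, adjusted p = 0.304). COL11A2 was at 4.05, 4.37, 4.82 and 2.76 CPM in PFBA libraries and 2.94, 2.59, 2.80 and 2.39 CPM in control libraries, with a log2 fold change of 0.57 and adjusted p = 0.408. COL1A1 was at 2.32, 2.70, 2.79 and 2.81 CPM in PFBA libraries and 1.82, 2.03, 2.64 and 1.99 CPM in control libraries, and its adjusted p was 0.489. Both overlapped between the groups. Of the abundant chains, COL17A1 had 1134, 1085, 1084 and 1052 CPM in PFBA libraries, and its log2 fold change against control lay between -0.04 and 0.13 at 95%. COL6A1 had 369.2, 384.0, 362.5 and 357.9 CPM, with an interval from -0.06 to 0.13. COL4A2 had 45.3, 45.0, 43.9 and 41.3 CPM, with an interval from -0.03 to 0.20. The PFBA libraries of these 3 chains overlapped the control libraries given above. COL6A2 was at 122.1 to 132.1, COL6A6 at 60.7 to 66.5, COL18A1 at 73.5 to 79.9 and COL4A5 at 59.5 to 63.9 CPM in PFBA libraries, each overlapping control. Ranges in PFBA libraries were 20.45 to 22.54 CPM for COL4A1, 15.6 to 19.5 CPM for COL5A2, 11.7 to 13.6 CPM for COL27A1 and 6.41 to 6.605 CPM for COL5A1.

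The acids were also compared directly, at the same dose and time. COL4A2 was higher with PFHxA at 51.7 ± 1.78 CPM, against 43.9 ± 1.83 CPM with PFBA (SD, n = 4 each), a log2 fold change of 0.24 (95% interval 0.13 to 0.35, adjusted p = 0.0119). COL6A1 was higher at 417.9 ± 3.08 CPM with PFHxA, against 368.4 ± 11.4 CPM with PFBA, a log2 fold change of 0.18 (0.08 to 0.28, adjusted p = 0.0215). These were the 2 of 29 chains that the edgeR test called between the acids, which differ in the length of the carbon chain (10.9% of all genes tested were called, 3.84% higher and 7.07% lower). COL4A2 was called in 12 of 12 fits that left out 1 library each. COL6A1 was called in 8 of 12 and lost without PFHxA d or PFBA a, c or d (adjusted p from 0.0532 to 0.0643).

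Other chains were not shown to differ between the acids, nor to be alike. COL6A2 had a log2 fold change of PFHxA over PFBA of 0.17 (0.05 to 0.29, adjusted p = 0.0658), and it was called without control d (adjusted p = 0.0441). COL17A1 stood at 0.10 (0.01 to 0.19, adjusted p = 0.131), and was likewise called without control d (adjusted p = 0.0405). COL15A1 stood at 0.05 (-0.08 to 0.18) and COL4A1 at 0.04 (-0.17 to 0.26). COL26A1 had 13.6, 14.7, 13.9 and 13 CPM in PFHxA libraries and 9.84, 10.7, 13.4 and 10.3 CPM in PFBA libraries, with adjusted p = 0.0802. In 6 chains all 4 PFHxA libraries lay above all 4 PFBA libraries (9.24% of all genes tested), namely COL17A1, COL6A1, COL6A2, COL6A6, COL4A2 and COL5A1, and in none below (10.8%). Over the 29 chains 20 were fitted higher with PFHxA than with PFBA, with a median log2 fold change of 0.07, against 51.0% and 0.01 over all genes tested. With the trend removed 10 were fitted higher (52.8% of all genes tested), the median was -0.05 and none was called (0.882%), COL4A2 standing at 0.11 (adjusted p = 0.338).

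**Figure D4:**
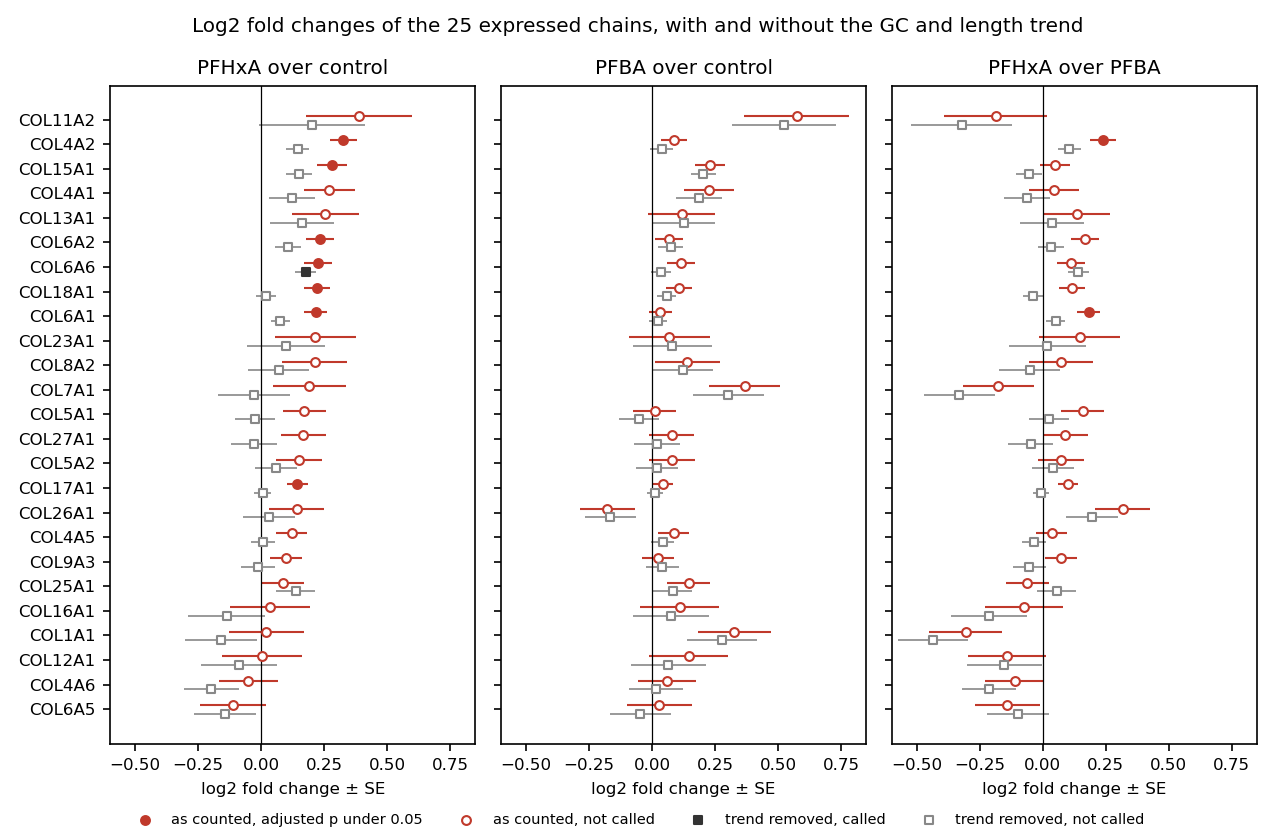
Log2 fold change with its SE (horizontal) for the 25 expressed chains, in panels for PFHxA over control, PFBA over control and PFHxA over PFBA, with circles for the fit to the counts and squares for the fit with the GC and length trend removed, filled where called. The 7 filled circles in the PFHxA over control panel give way to 1 filled square, COL6A6.

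Collagen chains are modified, folded, cut, cross-linked and degraded by other proteins, and 74 genes of these steps and of collagen binding were listed by role, of which 59 were tested. Between PFHxA and control 10 were higher and 3 lower, with a median log2 fold change of 0.10 over the 59. That is 22.0% of the tested genes of the list, beside 14.9% of all genes tested (6.08% higher, 8.82% lower). With the trend removed 4 were called (2.62% of all genes tested), of which P3H1, TIMP3 and FN1 are among the 13. None was called between PFBA and control. Between the acids 2 were higher and 4 lower with PFHxA, 10.2% of the list beside 10.9% of all genes tested, which is near the background.

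Hydroxylation of proline and lysine is a step the helix needs to be stable and cross-linked. The genes listed for it are not all hydroxylating enzymes, CRTAP and PPIB being among them. Of 12 tested, 3 were higher and 2 lower, beside 6.08% and 8.82% of all genes tested. P4HA1, a catalytic subunit of prolyl hydroxylase, fell with PFHxA to 55.4, 50.6, 55.0 and 55.9 CPM, against 68.3, 67.2, 64.4 and 77.2 CPM in control libraries. The groups did not overlap, and the log2 fold change was -0.35 (SE 0.0594, adjusted p = 0.00258). It was -0.18 and not called once the trend was removed (adjusted p = 0.0567). With PFBA it had 67.5, 66.0, 66.6 and 72.9 CPM, and PFHxA lay below PFBA as well (log2 fold change -0.33, adjusted p = 0.00429), though not with the trend removed (-0.18, adjusted p = 0.107). P3H1, which hydroxylates proline at another position, had 71.6, 71.8, 77.0 and 70.2 CPM with PFHxA and 61.9, 63.1, 64.9 and 56.5 CPM in control libraries (log2 fold change 0.24, adjusted p = 0.0144). Removal of the trend left it called at 0.22 (adjusted p = 0.0496). It was higher with PFHxA than with PFBA (0.22, adjusted p = 0.0247), a call lost without PFHxA b or c or PFBA a, c or d.

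PLOD2, a lysyl hydroxylase that acts on the ends of the chains, was lower with PFHxA at 162.4 ± 6.18 CPM, against 181.0 ± 5.39 CPM in control (SD, n = 4 each, log2 fold change -0.16, adjusted p = 0.0186), and its direction turned with the trend removed (0.09, adjusted p = 0.10). It was not called without PFHxA b or d or control a (adjusted p from 0.0547 to 0.0637). P3H2 and PLOD1, the other genes of this role called higher, lost the call in 4 (P3H2, without PFHxA b or c or control a or d) and 8 (PLOD1) of 12 fits that left out 1 library each, and both lost it with the trend removed (adjusted p = 0.131 for P3H2 and 0.433 for PLOD1). COLGALT2, which adds galactose to hydroxylysine, had 14.4, 16.6, 16.5 and 16.3 CPM with PFHxA and 12.3, 11.6, 13.1 and 12.4 CPM in control libraries (log2 fold change 0.37, SE 0.0772, adjusted p = 0.00731). It was 0.28 and not called once the trend was removed (adjusted p = 0.0747).

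Of 10 genes of folding and export, MIA2 alone was called, beside 14.9% of all genes tested. It was lower with PFHxA at 24.3 ± 0.924 CPM, against 28.8 ± 0.936 CPM in control (SD, n = 4 each, log2 fold change -0.25, adjusted p = 0.0145). MIA2 encodes a protein of the sites where cargo leaves the endoplasmic reticulum, and it was not called without PFHxA c (adjusted p = 0.0534), nor with the trend removed (-0.07, adjusted p = 0.629). SERPINH1, the collagen chaperone HSP47, named after its values were seen, ranged from 68.9 to 126.4 CPM in PFHxA libraries, from 52.9 to 118.3 CPM in PFBA libraries and from 61.9 to 121.4 CPM in control libraries. The groups overlapped over most of that range, and the SE of its log2 fold change of PFHxA over control was 0.295. SEC23A, of the coat that forms export vesicles, was called only with the trend removed (log2 fold change 0.21, adjusted p = 0.0125), and was 0.01 without that step.

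None of 7 tested genes of propeptide cleavage was called, BMP1, which removes the C-terminal propeptide, having the smallest p (adjusted p = 0.0816). Among 6 cross-linking genes PXDN alone was called higher, beside 6.08% of all genes tested. PXDN, the peroxidase that joins type IV molecules, had 17.4, 21.3, 18.9 and 19.7 CPM with PFHxA and 16.4, 17.0, 15.3 and 14.2 CPM in control libraries. The groups did not overlap and the log2 fold change was 0.30 (SE 0.0834, adjusted p = 0.0309), but it was not called without PFHxA b, c or d or control c or d (adjusted p from 0.0531 to 0.0892), nor with the trend removed (0.14, adjusted p = 0.372). LOXL2, a lysyl oxidase, was not called (adjusted p = 0.0906).

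Of 11 tested genes of degradation and its inhibitors, TIMP3 and MRC2 were higher, beside 6.08% of all genes tested. TIMP3, a matrix-bound inhibitor of metalloproteinases, had 826.7, 884.7, 886.1 and 889.6 CPM with PFHxA and 780.3, 766.7, 747.1 and 661.5 CPM in control libraries, without overlap. Its log2 fold change was 0.24 (SE 0.0494, adjusted p = 0.00704), and with the trend removed it was still called (0.18, adjusted p = 0.0267). MRC2, a receptor that takes up collagen fragments, overlapped between the groups (adjusted p = 0.0454) and was called in 4 of 12 fits that left out 1 library each, not without PFHxA b, c or d, PFBA c or d, or control a, c or d. Its log2 fold change was 0.22, and 0.04 with the trend removed (adjusted p = 0.779). PEPD, which splits proline dipeptides, differed between the acids, with 54.5 ± 0.589 CPM with PFHxA and 46.0 ± 1.27 CPM with PFBA (SD, n = 4 each, log2 fold change 0.24, adjusted p = 0.00559), but was not called with the trend removed (0.16, adjusted p = 0.0971).

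Of 6 tested collagen receptors none was called against control with either acid. DDR2, a receptor tyrosine kinase for fibrillar collagen, was lower with PFHxA than with PFBA, at 172.6 ± 6.15 CPM against 202.0 ± 6.69 CPM (SD, n = 4 each, log2 fold change -0.23, adjusted p = 0.0151), though not without PFHxA b (adjusted p = 0.0544) or with the trend removed (-0.12, adjusted p = 0.166). ITGB1, the beta chain of the collagen-binding integrins, missed the threshold between PFHxA and control (adjusted p = 0.0877).

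Of 5 tested matrix partners 3 were higher with PFHxA, beside 6.08% of all genes tested, and FN1 alone of them was called with the trend removed. FN1, fibronectin, had 65.3, 62.7, 60.9 and 70.3 CPM with PFHxA and 54.6, 54.1, 54.0 and 46.8 CPM in control libraries, a log2 fold change of 0.31 (SE 0.0605, adjusted p = 0.00554) that the removal of the trend left at 0.33 (adjusted p = 0.00953). The nidogens, which link type IV collagen to laminin, were low. NID1 had 9.87 ± 1.34 CPM with PFHxA and 7.47 ± 1.04 CPM in control (SD, n = 4 each, adjusted p = 0.0391), and NID2 had 2.53 ± 0.197 CPM with PFHxA and 1.80 ± 0.169 CPM in control (adjusted p = 0.0346). Both were without overlap between the groups. NID1 was not called without PFHxA c or d, PFBA a, or control b, c or d, and NID2 not without PFHxA b, c or d or control c or d. NID1 stood at 0.29 (adjusted p = 0.193) and NID2 at 0.40 (adjusted p = 0.155) in the fit with the trend removed. The fold changes were 1.32 for NID1 and 1.40 for NID2, beside 1.25 for COL4A2.

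**Figure D5:**
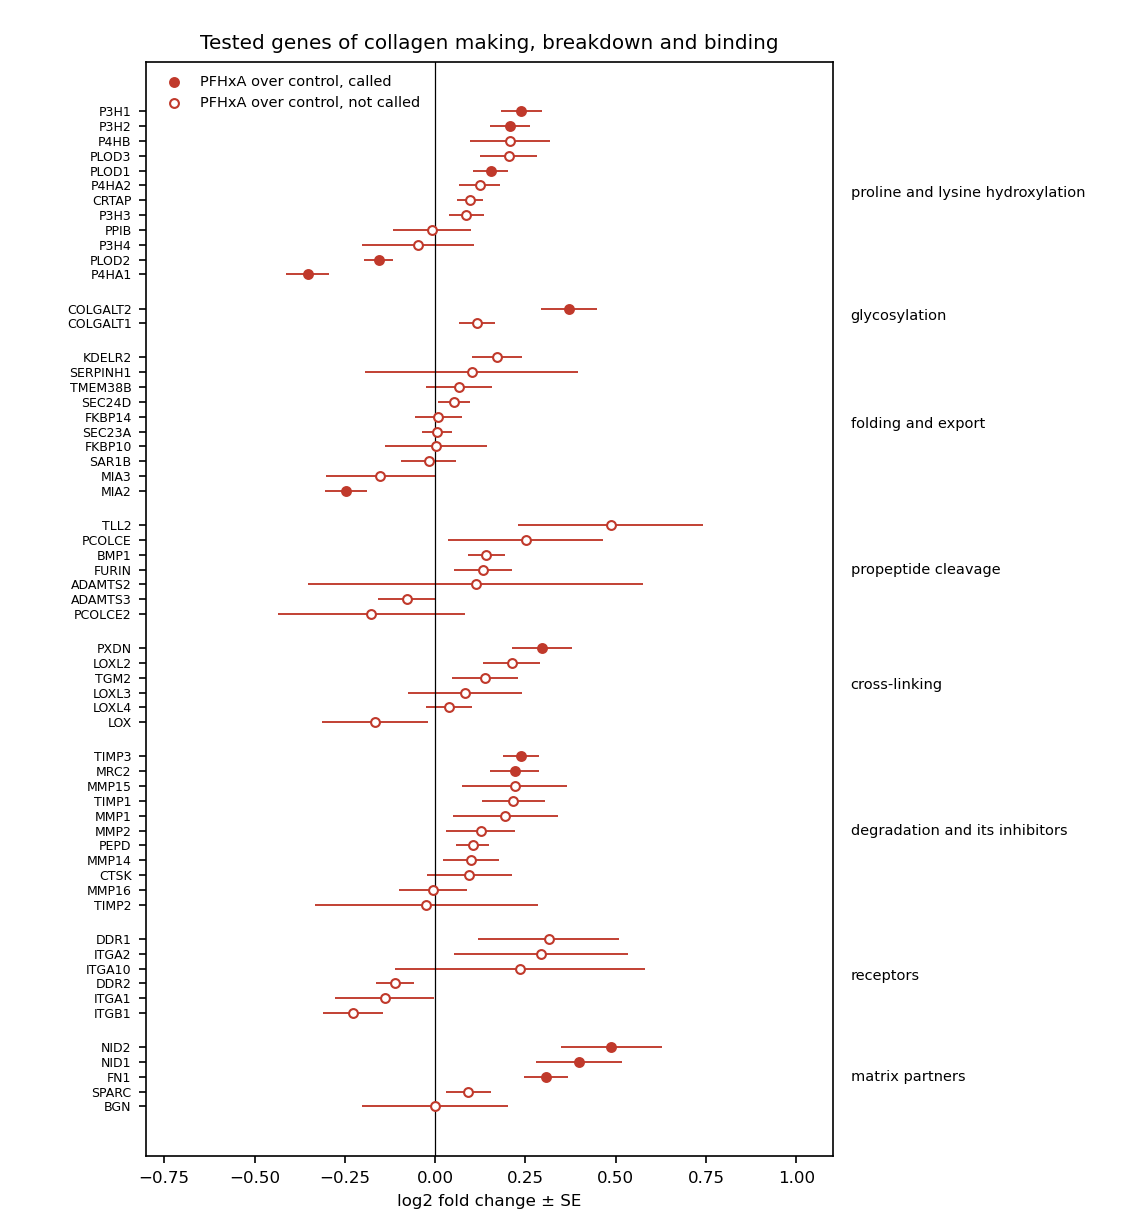
Log2 fold change of PFHxA over control with its SE (horizontal) for the 59 tested genes of collagen modification, folding, cleavage, cross-linking, degradation and binding, grouped by role and filled where called. The 10 genes called higher lie to the right of 0 and P4HA1, PLOD2 and MIA2, called lower, to the left.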

How the data were processed

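The deposited table gave a raw read count per gene and library, which the authors made from alignments with HISAT2 2.0.4 to GRCh38 (hg38), per the submitters' processing notes. The sources used here do not name the counting program, annotation release or strand setting. Libraries were prepared from total RNA with a VAHTS kit and run on a NovaSeq, per the labels. Column prefixes give the group and letters name the library. Another 12 columns of FPKM were not used, since letters cannot be matched to single samples, and levels were ordered by CPM per kb of the longest GENCODE 29 transcript in place of the FPKM first planned.

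Counts were fitted in R 4.3.3 with edgeR 4.0.16: genes kept by filterByExpr (minimum count 10, total 15), TMM scaling, 1 quasi-likelihood fit of 12 libraries with group as its only term, Benjamini-Hochberg adjustment over 16554 genes and a threshold of 0.05 for a call. The self-test ran the same steps on simulated counts. CPM uses TMM-scaled totals. Also run were scaling by RLE or the upper quartile, no filter or a stricter one, a fit of only the 8 libraries compared, limma-voom (limma 3.58.1), DESeq2 1.42.0, a correction per library for the GC content and length of the longest transcript (splines, 5 degrees of freedom), a block by column letter, and leaving out each library. GENCODE 29 held all 44 chains. Tables and figures used Python 3.11.15, pandas 2.3.3, numpy 2.4.6 and matplotlib 3.10.9.

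The chains, the lists of roles and markers, and the tests were chosen with earlier results of these data known. Values by library are given for chains called in any comparison and for the 3 of highest level per kb in each of 3 classes (for some of them in PFBA libraries as a range), and up to 3 genes a role are named from the other list, called ones with the smallest p first. COL26A1, COL11A2, COL1A1, P3H2, PLOD1, PEPD, SERPINH1, SEC23A and the chains named among counts of 5 or fewer fall outside that rule and were chosen after their values were seen. MIA2 has 2 entries in the table, and the one with more reads was used.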

Additional observations from a re-analysis of the deposited data

Results flagged for a closer look

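In 7 of 132 groups of 4 libraries, 1 library lay apart from the others by Dixon's criterion, the gap to the nearest library as a share of the group's range. For independent groups chance gives about 1 in 20. These groups come from the same 12 libraries and are not independent, so their number cannot be set against that share. The groups came from 44 genes, which include both chains and genes of the pathway list and are not the 44 chains. Control d was the low one for COL17A1, at 980.4 CPM against 1074 to 1093 in the other control libraries, for COL4A5, at 50.3 CPM against 60.2 to 61.2, and for FN1, at 46.8 CPM against 54.0 to 54.6. The other cases were P4HA1 in PFHxA b, at 50.6 CPM against 55.0 to 55.9 in the other PFHxA libraries, COLGALT2 in PFHxA a, at 14.4 CPM against 16.3 to 16.6, TIMP3 in PFHxA a, at 826.7 CPM against 884.7 to 889.6, and PEPD in control a, at 46.6 CPM against 51.5 to 52.4 in the other control libraries.

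The effects of the acids against the shared control differed, by the edgeR test of PFHxA against PFBA, in 2 of 29 chains (6.9%) and 6 of 59 genes of the pathway list (10.2%), beside 10.9% of all genes tested. The log2 fold change of PFHxA over PFBA was 0.24 for COL4A2, 0.18 for COL6A1, 0.22 for P3H1 and 0.24 for PEPD. It was -0.33 for P4HA1, -0.30 for PLOD2, -0.27 for MIA2 and -0.23 for DDR2. Of these 8, none was called between the acids with the GC and length trend removed.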

How the results depend on the processing

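Removing the GC and length trend changed most: between PFHxA and control 433 genes, 1 chain and 4 pathway genes were called, against 2466, 7 and 13, and between PFHxA and PFBA 146 genes, 0 chains and 2 pathway genes, against 1806, 2 and 6. It turned the sign of 7 of 29 chains for PFHxA against control, 2 for PFBA against control and 12 between the acids, none of them called in that comparison. Among chains called against control and COL4A1 these were, between the acids, COL17A1 (-0.006528), COL15A1 (-0.05422), COL18A1 (-0.03897) and COL4A1 (-0.06325). PLOD2, called between PFHxA and control, also turned (0.09303). Between the acids, DESeq2 and the block by column letter called 4 chains each. For PFBA against control, 1 gene was called, and 2 without the filter, 2 with only the 8 libraries compared, 0 with limma-voom, 44 with DESeq2 and 0 with the letter block. Calls of PLOD1, MRC2 and NID1 between PFHxA and control were lost with only the 8 libraries compared (adjusted p = 0.0621, 0.0674 and 0.0718), those of PLOD1 and NID2 without the filter (0.0756 and 0.11) and with the letter block (0.0522 and 0.0606). Leaving out each library gave, for PFHxA against control, 1523 to 2396 genes, 6 to 8 chains and 6 to 15 pathway genes, for PFBA against control 0 to 4 genes, and for PFHxA against PFBA 1035 to 2187 genes, 1 to 4 chains and 5 to 9 pathway genes. It turned the sign of 4 chains for PFHxA against control, 7 for PFBA against control and 6 between the acids, none of them called there, among them COL6A1 for PFBA against control (-0.008189, without control d, over a range up to 0.06233) and COL4A1 between the acids (-0.003272, without PFHxA d, up to 0.09446). The cause of these moves was not tested. No analysis paired by the labels' replicate numbers was possible because the columns do not carry them, and the block by column letter called 2441 genes and 7 chains between PFHxA and control. Libraries of the same letter did not deviate together (correlations from -0.0896 to 0.0625). The order of levels by FPKM was not run, since those columns were not used.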
